A study of Mus musculus with 21 samples.

Results

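The genes described here are 16 protein-coding genes of mouse embryonic stem cells whose RNA lay near the control level after 2 and 4 h of either RNA polymerase I inhibitor and clearly above it after 8 h of both. They were chosen from the measured values. Among the 20900 genes of the deposited table, 13684 had a mean log2 value of at least 0 over the 21 libraries. Each library was centred on its median, and the group means were compared with control. A gene was kept where all 4 changes at 2 and 4 h were under 0.6 in size on the log2 scale and both changes at 8 h were at least 1.2. Genes named Zscan4 were to be left out, and this removed 0 genes. The 16 genes kept, in order of their mean change at 8 h, were Hdac9, AF067061, Calr4, Zadh2, Krtdap, Gm20767, Usp17lc, Pla2g7, Grid1, Scml4, Rec8, Krt19, Arhgef5, Prss23, Abcc3 and Ptrf. All differences from control given for them are therefore descriptions of the choice, with no test.

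The cells were E14 embryonic stem cells, a line of 129 strain origin kept in serum with leukaemia inhibitory factor. The 7 groups were an untreated 0 h control, cells given 1 µM BMH-21 for 2, 4 or 8 h, and cells given 1 µM CX-5461 for 2, 4 or 8 h. Each group had 3 replicates, and the libraries held 46604397 to 62812641 reads over the genes of the table, recovered as whole reads from the deposited values. The labels do not say whether replicates were separate cultures, so p-values measure only the spread between these samples, which may be technical. No untreated cells were sampled at 2, 4 or 8 h, so time after the medium change and time in the inhibitor cannot be told apart. The comparisons of both inhibitors with control share the same 3 control libraries.

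BMH-21 and CX-5461 are small molecules that block RNA polymerase I, the enzyme that makes the large ribosomal RNA precursor in the nucleolus. Both bind DNA, and loss of ribosomal RNA synthesis is known to activate p53 through free ribosomal proteins. In embryonic stem cells the nucleolus also helps to keep genes of the 2-cell embryo silent, among them the transcription factor gene Dux, whose product switches on many other genes of that stage.

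The promoters of 4 of the 16 genes are shown because they hold the sequence motifs found among the group. Each window runs from 250 bases before to 50 after the annotated RefSeq start in GRCm38.p6, 5′ to 3′ on the strand of the gene. Capitals mark matches to TATAAA (the TATA box) or TGANTCA. The latter is a loose form of the AP-1 motif, which has C or G in the middle.
AF067061: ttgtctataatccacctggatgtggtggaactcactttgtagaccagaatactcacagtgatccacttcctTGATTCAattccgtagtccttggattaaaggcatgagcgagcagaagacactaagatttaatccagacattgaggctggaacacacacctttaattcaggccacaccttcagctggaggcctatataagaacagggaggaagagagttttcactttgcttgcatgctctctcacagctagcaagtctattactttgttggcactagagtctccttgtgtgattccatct
Usp17lc: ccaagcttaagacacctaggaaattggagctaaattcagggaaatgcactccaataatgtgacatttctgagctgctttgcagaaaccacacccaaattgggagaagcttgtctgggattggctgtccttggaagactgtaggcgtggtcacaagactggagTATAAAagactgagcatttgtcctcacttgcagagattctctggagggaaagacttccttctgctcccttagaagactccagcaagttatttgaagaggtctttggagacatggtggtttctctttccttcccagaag
Hdac9: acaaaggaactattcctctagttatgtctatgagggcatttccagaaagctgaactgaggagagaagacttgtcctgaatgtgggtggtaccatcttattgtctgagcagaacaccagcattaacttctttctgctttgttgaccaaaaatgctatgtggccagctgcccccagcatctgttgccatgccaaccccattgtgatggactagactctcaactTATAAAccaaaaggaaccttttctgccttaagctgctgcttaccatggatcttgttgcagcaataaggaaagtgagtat
Krtdap: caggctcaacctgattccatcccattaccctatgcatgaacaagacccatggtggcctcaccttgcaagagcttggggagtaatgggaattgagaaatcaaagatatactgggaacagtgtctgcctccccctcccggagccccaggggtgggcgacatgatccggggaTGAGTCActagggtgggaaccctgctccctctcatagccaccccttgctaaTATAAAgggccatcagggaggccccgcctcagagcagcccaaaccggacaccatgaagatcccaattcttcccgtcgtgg

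These windows lie at chr13:120262845-120263144 on the plus strand for AF067061, chr7:103416446-103416745 on the plus strand for Usp17lc, chr12:34917046-34917345 on the minus strand for Hdac9 and chr7:30787655-30787954 on the plus strand for Krtdap. RefSeq windows were matched for 10 of the 16 genes. Only the first listed window of each gene was used, while Prss23 had 7, Calr4 4, Hdac9 2 and Ptrf 2. Those of Zadh2, Gm20767, Grid1, Scml4, Krt19 and Abcc3 were not matched. TATAAA, read on both strands, was present in 3 of the 10, against 7.3% of the 11322 windows of tested genes. It began 29 bases before the start of Hdac9, 30 before that of Krtdap and 88 before that of Usp17lc. TGANTCA was present in 2 of the 10, against 4.9% of all windows. It read TGATTCA at -179 in AF067061 and TGAGTCA at -81 in Krtdap, so only the Krtdap match is of the stricter AP-1 form. The 4.9% counts the loose form. CACGTG (the E-box), TGACGTCA (the cAMP response element) and a DUX motif (TGAT and ATCA, 3 bases apart) were present in 0 of the 10, against 9.9%, 3.2% and 0.2%. The p53 decamer was found in 2 (Usp17lc and Hdac9), against 7.0%. No TATAAA match overlaps a TGANTCA match. A match is a run of letters, not a measured binding site.

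The 10 promoters ranged widely in CpG dinucleotides. The ratio of observed to expected CpG had a median of 0.34, against 0.75 over the 11322 windows, and it was under 0.5 in 6 of the 10, against 23.4%. The ratio was 0.00 in Hdac9, 0.06 in Usp17lc, 0.14 in AF067061 and 0.30 in Krtdap, and it reached 0.69 in Arhgef5, 0.72 in Rec8 and 0.79 in Pla2g7. The median GC content was 55.2%, against 60.7%. These shares are counts over a small list chosen from the data and carry no test.

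The rule itself held the 16 genes near control at 2 and 4 h and above it at 8 h. Within these limits the shape of the rise varied between genes. With CX-5461, Ptrf changed by 0.25, 0.49 and 1.21 at 2, 4 and 8 h, and Pla2g7 by 0.10, -0.15 and 1.83. At 2 h of BMH-21 the mean was above control for 8 genes and below for 8, and CX-5461 gave the same split. At 4 h the mean was above control for 12 genes with BMH-21 and 13 with CX-5461, with median changes of 0.24 and 0.29. At 8 h the median changes were 1.58 and 1.39. Over all 14666 tested genes the median changes at 8 h were -0.19 and -0.11. All log2 values here are centred, so a change of 0 means that a gene moved with the median of its library.

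Separation from control at 4 h was bounded by the limit that chose the genes, so no result is read from how frequent it was. All 3 treated libraries lay above all 3 controls at 4 h for 6 genes with BMH-21 (AF067061, Abcc3, Arhgef5, Calr4, Prss23 and Ptrf), where 32.9% of tested genes did so. With CX-5461 this held for 7 (Abcc3, Arhgef5, Calr4, Krt19, Ptrf, Rec8 and Scml4), where 29.5% did so. Pla2g7 lay below every control at 4 h of CX-5461. The share of the 8 h change that was present at 4 h ran from -15.1%, for Hdac9 with BMH-21, to 44.4%, for Scml4 with CX-5461. At 8 h the treated values of all 16 genes lay above every control with both inhibitors, where 32.8% of tested genes did so for BMH-21 and 30.9% for CX-5461. That separation is fixed by the choice.

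**Figure D1:**
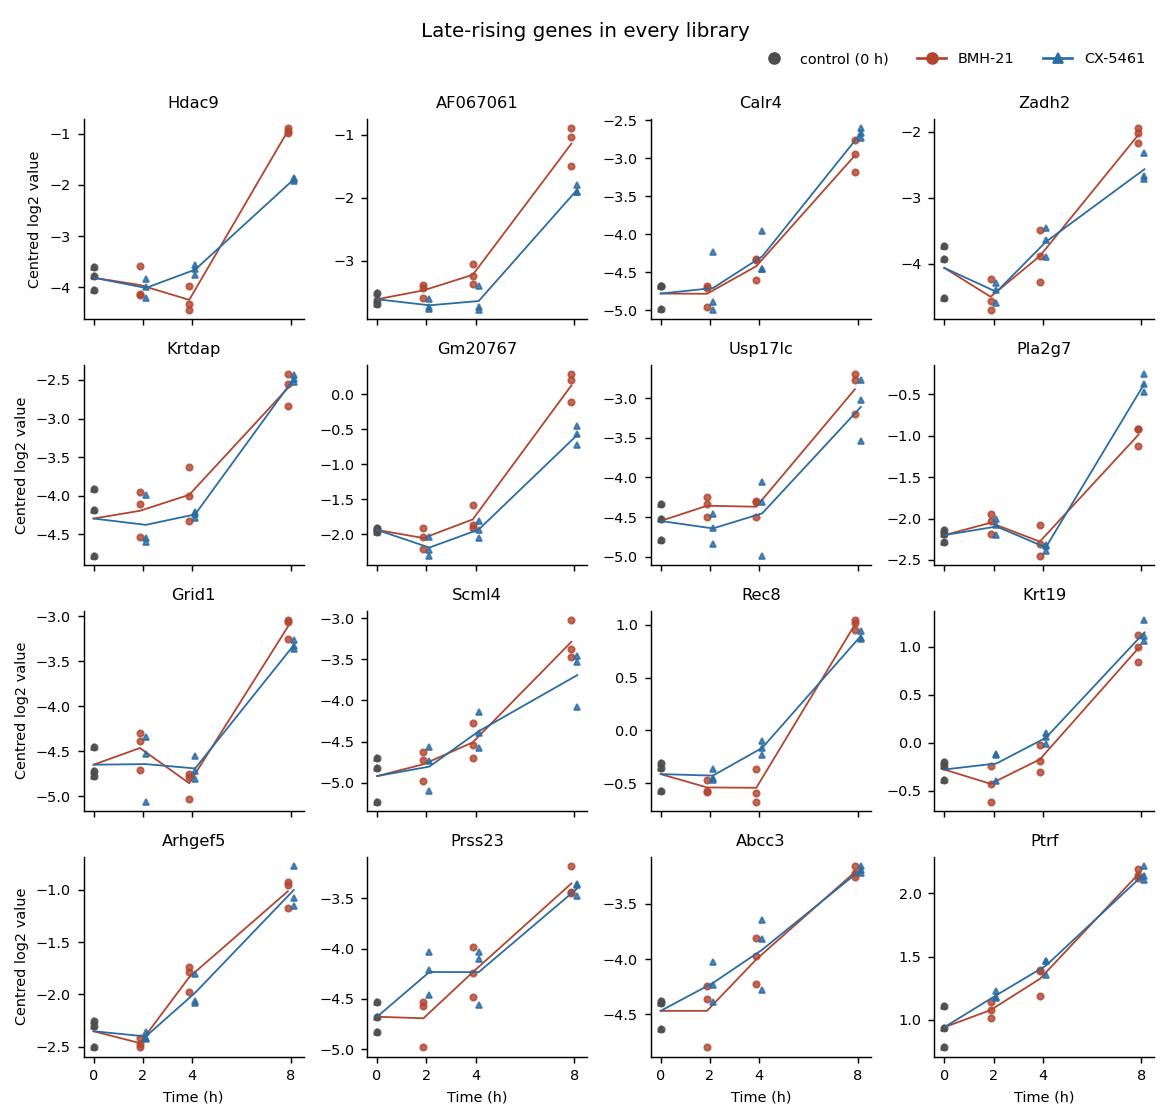
Centred log2 values (y axes, each with its own range) of the 16 genes against time in hours (x axes). Points are libraries and lines join group means. The 8 h points lie above the 4 h points of the same inhibitor in all 16 panels, and the 0 and 2 h points mostly overlap. The 4 h points lie wholly above control for 6 genes with BMH-21 and 7 with CX-5461.

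Between 4 and 8 h the 3 libraries of the later time lay above the 3 of the earlier time for all 16 genes, with both inhibitors. Among all tested genes this held for 27.9% with BMH-21 and 29.7% with CX-5461. The narrowest gap was in Scml4 with CX-5461, where the lowest 8 h value exceeded the highest 4 h value by 0.07. The widest was 2.98, in Hdac9 with BMH-21. This contrast is built from the same group means as the rule and is not a test.

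Hdac9, a class IIa histone deacetylase, had the highest mean change. Its reads were 77, 84 and 57 in the 3 control libraries, 51, 67 and 47 at 4 h of BMH-21, and 612, 740 and 668 at 8 h. With CX-5461 they were 100, 75 and 83 at 4 h and 356, 343 and 287 at 8 h. The change at 8 h was 2.87 with BMH-21 (7.30-fold; SD 0.05 over the treated libraries, n = 3) and 1.92 with CX-5461 (3.78-fold; SD 0.03, n = 3). At 4 h it was -0.43 and 0.16, so that Hdac9 was lower than its control mean with BMH-21 just before it was highest. At 2 h it was -0.14 and -0.20.

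Scml4, a relative of the Polycomb group protein Scm, was the lowest of the 16 in reads. The controls held 37, 39 and 25 reads, the BMH-21 8 h libraries 107, 141 and 153, and the CX-5461 8 h libraries 111, 75 and 99. The changes at 8 h were 1.63 and 1.23, and those at 4 h 0.41 and 0.55. The CX-5461 library with 75 reads lay within 0.07 of the highest 4 h library, so the late step is least clear in this gene.

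Rec8, the kleisin subunit of the meiotic cohesin ring, was among the better covered. It had 854, 802 and 643 reads in control, 2292, 2963 and 2573 at 8 h of BMH-21 and 2379, 2449 and 1993 at 8 h of CX-5461. The changes of 1.42 (SD 0.05, n = 3) and 1.31 (SD 0.04, n = 3) corresponded to 2.67-fold and 2.48-fold. At 4 h Rec8 had 644, 700 and 805 reads under BMH-21 and 1115, 908 and 886 under CX-5461, changes of -0.13 and 0.25.

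Of the genes linked to the 2-cell embryo, 3 belong to the group. AF067061 and Gm20767 lie in the same stretch of chromosome 13 and share sequence with each other. AF067061 also shares sequence with the 2-cell transcripts Tcstv1 and Tcstv3. AF067061 had 92, 79 and 77 reads in control, 99, 111 and 124 at 4 h of BMH-21 and 420, 787 and 609 at 8 h. With CX-5461 it had 89, 96 and 75 reads at 4 h and 342, 368 and 292 at 8 h. The 8 h changes were 2.47 (5.55-fold; SD 0.32, n = 3) and 1.74 (3.35-fold; SD 0.07, n = 3). BMH-21 replicate 1 was the lowest of its group and still lay above every CX-5461 library after centring.

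Gm20767 followed the same course at a higher level. Its reads were 281, 261 and 251 in control, 272, 290 and 345 at 4 h of BMH-21 and 1095, 1689 and 1517 at 8 h. With CX-5461 they were 286, 266 and 297 at 4 h and 779, 933 and 739 at 8 h. The changes at 8 h were 2.06 (4.18-fold) and 1.36 (2.56-fold), against 0.15 and 0.01 at 4 h. Usp17lc, a deubiquitinase gene of the Usp17-like family, had 38, 44 and 47 reads in control, 174, 160 and 192 at 8 h of BMH-21 and 111, 187 and 134 at 8 h of CX-5461. Its 8 h changes were 1.67 (3.17-fold; SD 0.27, n = 3) and 1.44 (2.72-fold; SD 0.39, n = 3).

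The reads of these 3 genes are uncertain, because parts of their transcripts also occur in other genes. Of the 50-base stretches of the annotated transcripts, 70.2% of those of Gm20767, 44.7% of those of Usp17lc and 23.4% of those of AF067061 were found in at least 1 other gene. For Usp17lc these included Usp17la, Usp17lb, Usp17ld and Usp17le, and for AF067061 they included Gm20767, Tcstv1 and Tcstv3. The shared stretches of Gm20767 occurred in 145 other genes, AF067061 among them, so its share is not only that of its neighbours. In the other 13 genes the share was at most 1.2%. How the authors' counting treated such reads is not given in the sources used here.

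Krtdap, a small secreted protein of differentiating keratinocytes, and Krt19, a type I keratin of simple epithelia, were the epithelial genes of the group. Krtdap had 70, 37 and 52 reads in control, 51, 85 and 64 at 4 h of BMH-21, 166, 273 and 211 at 8 h, and 224, 236 and 194 at 8 h of CX-5461. Its changes at 8 h were 1.69 (3.22-fold; SD 0.21, n = 3) and 1.81 (3.51-fold; SD 0.05, n = 3). Krt19 had 922, 866 and 731 reads in control, 2130, 3197 and 2482 at 8 h of BMH-21 and 2701, 2751 and 2661 at 8 h of CX-5461. Its changes were 1.27 and 1.43, against 0.11 and 0.33 at 4 h. The highest read number of Krt19, in BMH-21 replicate 2, came from the deepest library.

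Calr4, of the calreticulin family of chaperones, had 41, 32 and 37 reads in control, 130, 190 and 184 at 8 h of BMH-21 and 212, 200 and 164 at 8 h of CX-5461. Its 8 h changes were 1.82 and 2.11, and its 4 h changes 0.36 and 0.49. Zadh2, an oxidoreductase that reduces prostaglandins, had 69, 77 and 41 reads in control, 263, 363 and 322 at 8 h of BMH-21 and 196, 200 and 219 at 8 h of CX-5461. The control library with 41 reads made its control spread (SD 0.41, n = 3) wide for this group. Its 8 h changes were 2.02 and 1.5, after -0.44 and -0.36 at 2 h.

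Pla2g7, the secreted enzyme that inactivates platelet-activating factor, had 233, 233 and 197 reads in control, 626, 778 and 570 at 8 h of BMH-21 and 930, 1068 and 840 at 8 h of CX-5461. It was flattest early on, with no 2 or 4 h change above 0.15 in size, and its 8 h changes were 1.21 and 1.83. An annotated antisense gene, 1700071M16Rik, overlaps its exons and held 0 to 4 reads in control and at most 16 in any 8 h library. The library kit was directional, but whether the counting used strand is not given in the sources used here. Arhgef5 and Prss23 also overlap antisense genes (Gm44731 and Prss23os), which have no row of their own in the table.

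Grid1, which encodes the delta-1 glutamate receptor subunit, had 48, 37 and 36 reads in control, 142, 154 and 151 at 8 h of BMH-21 and 128, 132 and 106 at 8 h of CX-5461. Its changes at 8 h were 1.53 and 1.33, and at 4 h -0.21 and -0.04. The remaining 4 genes had 8 h changes between 1.21 and 1.35 with both inhibitors. They were Arhgef5, a guanine nucleotide exchange factor, Prss23, a serine protease, Abcc3, an exporter of organic anions, and Ptrf (now Cavin1), a caveola coat protein first described as a release factor for RNA polymerase I. Ptrf had the most reads of the 16, 1769 to 2062 in control, 5250 to 6399 at 8 h of BMH-21 and 5091 to 5689 at 8 h of CX-5461. Arhgef5 ran from 181 to 222 reads in control to between 490 and 749 at 8 h. Abcc3 ran from 38 to 50 reads to between 119 and 157, and Prss23 from 37 to 44 reads to between 106 and 162. In these 4 genes the 4 h changes ran from 0.37 (Arhgef5 with CX-5461) up to 0.56 (Abcc3 with CX-5461).

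Per length the order of the levels differed from the order of the changes. In RPKM, reads per kilobase of exon scaled to a fixed library size, Ptrf had the highest control level at 10.2 ± 1.24 (SD, n = 3), followed by Krt19 at 8.44 ± 0.515, Rec8 at 4.87 ± 0.430 and Gm20767 at 3.5 ± 0.101. Krt19 and Ptrf were within 2 SD of each other. Krtdap (1.46 ± 0.429) and Pla2g7 (1.42 ± 0.0572) did not differ beyond their spread. Hdac9 and Scml4 were lowest, at 0.0922 ± 0.0136 and 0.0810 ± 0.0144. At 8 h of BMH-21 Hdac9 had reached 0.841 ± 0.0372 and at 8 h of CX-5461 0.427 ± 0.00840, still under the control levels of the 7 highest genes. RPKM values are not centred, so their ratios to control at 8 h exceed the fold changes given above.

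Genes at the edge of the rule show how close its limits cut. On the early side Abcc3 (largest early change 0.56) and Scml4 (0.55) were just inside, while Tcstv3 (0.61) and Cacna1s (0.61), a calcium channel gene, were just outside. Tcstv3 had 8 h changes of 2.42 and 1.87, larger than those of most genes kept. On the late side Ptrf (1.21) and Pla2g7 (1.21) were just inside, and Dusp1 (1.197), a phosphatase gene of the immediate early response, and Adgra3 (1.19) just outside. Scml4 and Grid1 had mean log2 values of 0.03 and 0.12, just above the minimum of 0, and Kcnq5 and Gm10696 were just below it at -0.32 and -0.34.

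Late-only rises were a small share of what was high at 8 h. Of 844 genes with a mean of at least 0 and both 8 h changes at or above 1.2, 516 had a change of at least 0.6 at 2 h and 312 had one first at 4 h. The remaining 16 had neither. In the other direction 54 genes had both 8 h changes at or below -1.2, and 3 of them met the early limits. With the early limits met, 62 genes reached 1.2 at 8 h with BMH-21 but not CX-5461, and 13 with CX-5461 but not BMH-21. The 5 Zscan4 genes of the table were among those that met the early limits. Their 8 h changes lay from 2.36 to 2.47 in BMH-21 cells and from 0.81 to 1.14 in CX-5461 cells, the latter under the late limit.

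**Figure D2:**
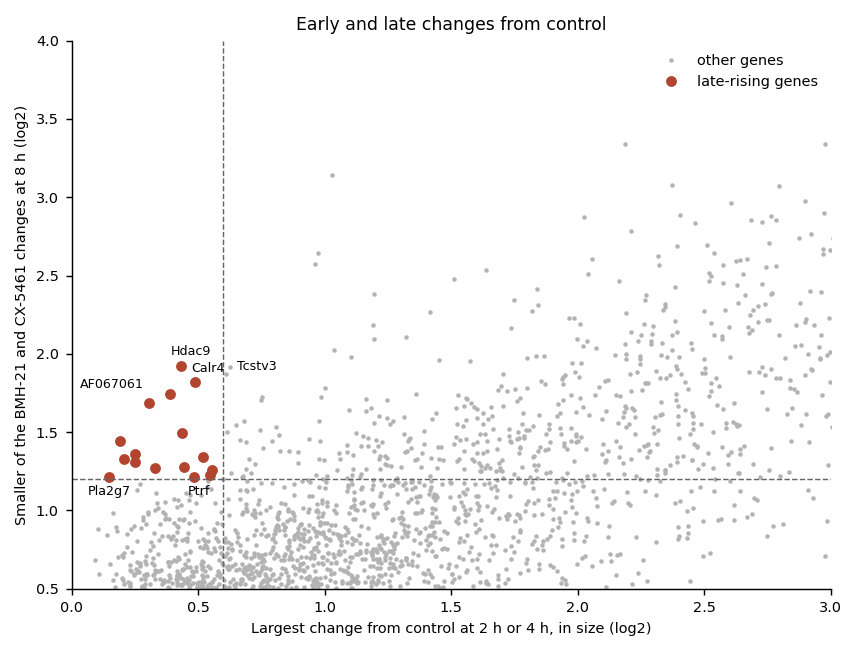
Each point is a gene with a mean log2 value of at least 0, with its largest 2 or 4 h change in size on the x axis and the smaller of its 8 h changes on the y axis (both log2, centred). The axes are cut, so genes beyond 3 or under 0.5 are not drawn, and the dashed lines are the limits of 0.6 and 1.2. The 16 late-rising genes fill the upper left corner, and Tcstv3 lies just right of it.

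The choice of scaling moved the membership. With the deposited values, which carry a factor per library, 38 genes met the rule, 10 of them among the 16. Median-ratio factors kept 20 genes (14 shared) and quantile normalization 12 (5 shared). AF067061, Calr4 and Rec8 were kept under all 3 of these scalings and Abcc3 under none of them. Without each of the 21 libraries in turn the rule kept 14 to 21 genes, and 9 of the 16 were kept in all 21 such runs. Scml4 was kept in 16 of the 21, the fewest of any.

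The rule compared each treated group with control, not the inhibitors with each other. It did use the same group means, so the choice of genes bears on the differences between them, most at 2 and 4 h, where every mean had to lie within 0.6 of control. These differences were tested with limma on all 14666 genes. Both inhibitors were given at 1 µM and sampled at the same times, so the comparison is at matched dose and time, and 3 comparisons were made. At 8 h 5 of the 16 genes differed at a Benjamini-Hochberg adjusted p under 0.05, against 71.7% of all genes tested. Higher with BMH-21 were 4 of them, Hdac9, AF067061, Gm20767 and Zadh2, and lower with BMH-21 was Pla2g7. The rule set a lower limit for both inhibitors at 8 h and no upper one, and nothing is read from the members' share against that of all genes. The values of all 5 did not overlap between the inhibitors. Those of another 3 did not overlap either but did not pass the test (Grid1 and Rec8 higher with BMH-21, Calr4 lower). Over all tested genes, 31.1% were called higher and 40.6% lower with BMH-21, and 31.6% and 40.4% did not overlap in those directions.

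Hdac9 differed most, by 0.95 (SE 0.15; 1.93-fold; limma adjusted p = 7.6e-06). AF067061 was higher with BMH-21 by 0.73 (SE 0.14; limma adjusted p = 4.6e-05) and its neighbour Gm20767 by 0.71 (SE 0.11; limma adjusted p = 4.2e-06). Zadh2 was higher by 0.52 (SE 0.20; limma adjusted p = 0.024). Its call was lost without BMH-21 replicate 3 (0.48), CX-5461 replicate 1 (0.45) or CX-5461 replicate 2 (0.47). Pla2g7 was lower with BMH-21, by -0.62 (SE 0.09; limma adjusted p = 3.1e-06). On the deposited scale, without centring, the calls of AF067061 (0.30) and Zadh2 (0.10) were lost, and 10 genes were called, 2 higher and 8 lower with BMH-21.

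The other 11 genes had differences between -0.29 and 0.40 that did not pass the test. The 95% interval was narrow for Ptrf, -0.13 to 0.13, and Rec8, -0.04 to 0.25. It was wide for Usp17lc, -0.23 to 0.68, and Scml4, -0.03 to 0.84, where a difference as large as that of Zadh2 lies inside. For Calr4 it was -0.69 to 0.10 and for Krtdap -0.56 to 0.32.

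**Figure D3:**
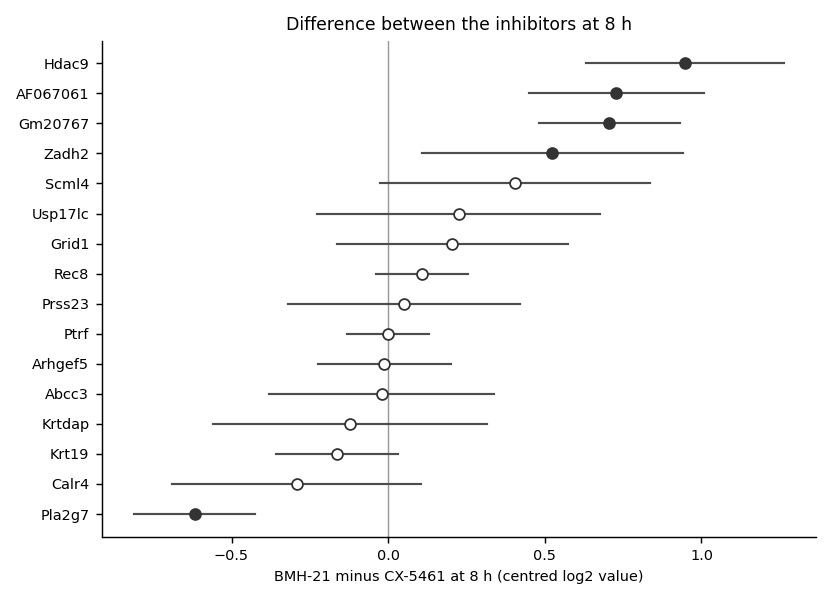
Difference between BMH-21 and CX-5461 at 8 h for the 16 genes (x axis, centred log2 value, positive where BMH-21 is higher). Points are limma estimates from 3 libraries a group, bars are 95% confidence intervals, and filled points passed the adjusted threshold. Hdac9, AF067061, Gm20767 and Zadh2 lie to the right of 0 and Pla2g7 to the left.

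At 4 h 3 of the 16 genes differed between the inhibitors, against 45.8% of all genes (27.4% higher and 18.5% lower with BMH-21), a share that the early limits of the rule help to set. Hdac9 was lower with BMH-21 by -0.59 (limma adjusted p = 0.0032), the opposite sign to its difference at 8 h. Rec8 was lower with BMH-21 by -0.38 (limma adjusted p = 1.5e-04), and AF067061 higher by 0.42 (limma adjusted p = 0.015). The AF067061 call was lost with voom weights (0.42), on the deposited scale (0.43) and without BMH-21 replicate 3 (0.33), CX-5461 replicate 1 (0.37) or CX-5461 replicate 3 (0.34). At 2 h limma called 0 of the 16, against 15.4% of all genes and under the same limits, with 2 at an unadjusted p under 0.05 (Krt19 and Prss23). The fit with voom weights also called 0 at 2 h.

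Lists of genes of known function were counted at 8 h against control with the same fit, where 33.3% of all genes were called higher and 51.3% lower with BMH-21. For CX-5461 the shares were 29.3% and 44.7%. Of 20 tested genes of the 2-cell embryo other than Zscan4, 20 were higher with BMH-21 and 19 with CX-5461, and 0 were lower with either. Their median changes were 2.11 and 1.67. The list holds AF067061, Gm20767 and Usp17lc of the 16, and the earlier results that gave rise to the choice of genes already showed it. Dux had changes of 4.34 and 3.71 at 4 h and 5.38 and 3.57 at 8 h, Tmem92 of 1.03 and 0.70 and then 3.65 and 3.14, with BMH-21 and CX-5461 in that order. Early changes were under 0.6 in 8 of the 20, or 40.0%, against 61.3% of all tested genes. Besides the 3 members these were Gm2022, Gm5662, Gm8300, Tdpoz4 and Usp17la. Usp17la reached 1.62 and 1.06 at 8 h, Usp17lb 2.13 and 1.57, Usp17ld 2.08 and 1.86 and Usp17le 3.35 and 2.18.

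Krt19 was the only one of the 16 in the trophoblast list, of which 9 of 17 tested genes were higher and 6 lower with BMH-21, and 9 higher and 1 lower with CX-5461. On the deposited scale the BMH-21 counts turned to 7 higher and 8 lower. Within it Krt7, another keratin, changed by 4.88 and 3.29, Cdx2 by 1.57 and 1.04 and Hand1 by 1.66 and 1.03. Cdx2 had been at -1.05 and -0.77 at 4 h. Tfap2a changed by -0.99 and -0.49 and Eomes by -0.88 and 0.65. Tead4 changed by -1.68 with BMH-21, and its CX-5461 value of 0.08 did not pass the test. Krt8 had values of -0.08, which did not pass the test, and 0.46. The other lists held none of the 16. Of 22 epithelial junction genes, 14 were higher and 6 lower with BMH-21, while CX-5461 gave 15 and 5. The junction genes Evpl (5.11 and 2.83) and Itgb4 (2.27 and 1.86) were higher, and their changes at 4 h were 3.74 and 3.90, and 1.24 and 1.95. Of 16 germline genes, where Rec8 would belong by its meiotic role but was not listed, 4 were higher and 9 lower under BMH-21, and CX-5461 gave 1 and 9. Of 37 p53 targets, 31 were higher and 0 lower with BMH-21, while CX-5461 gave 32 and 1.

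The counts of the remaining lists were mixed. NF-kB targets (16 tested) had 9 higher and 5 lower with BMH-21, while CX-5461 gave 9 and 2. Interferon-stimulated genes (23 tested) had 8 and 13 for BMH-21, 10 and 7 for CX-5461. Primitive endoderm genes (16 tested) had 9 higher and 6 lower with BMH-21, while CX-5461 gave 5 and 6, which turned to 6 and 7, and 7 and 1, on the deposited scale. For CX-5461 median-ratio factors also gave more genes higher (7) than lower (6). Mesoderm genes (9 tested) had 4 higher and 2 lower with each inhibitor. Neuronal genes (16 tested) had 4 and 11 with BMH-21, while CX-5461 gave 5 and 7, where the CX-5461 order turned to 5 higher and 3 lower on the deposited scale and 5 and 4 with median-ratio factors. Fibroblast genes (4 tested) had 2 higher and 1 lower with each. Embryonic stem cell genes (10 tested) had 0 higher and 10 lower with BMH-21, while CX-5461 gave 1 and 8.

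The summed levels of cell type markers also differed between groups. These sums are reads over library totals and are not centred. At 8 h they stand higher against control than centred values do, with both inhibitors. Whether a small excess over control, as for primitive endoderm, would remain after centring was not computed. Markers of embryonic stem cells were present in all libraries, with 0 of 10 at 0 reads, and summed to 5981 to 6024 RPM (reads scaled to a fixed library size) in control. Under BMH-21 the sum was 4916 to 5116 at 2 h, 3907 to 4152 at 4 h and 3644 to 4093 at 8 h. Under CX-5461 it was 4938 to 5011, 4223 to 4323 and 5332 to 5395. On this uncentred scale it was below control early and nearer to it at 8 h. The 20 trophoblast markers, Krt19 among them, summed to 164 to 168 in control. They summed to 148 to 155 and 151 to 156 at 4 h, and to 357 to 373 and 294 to 316 at 8 h. That sum was above control at 8 h and not at 4 h, but genes with many reads weigh most in it. Tfap2c held 3334 to 3519 reads in control, the most of this list. It changed by -0.47 and -0.61 at 4 h and by 0.89 and 0.44 at 8 h. Krt19 was itself chosen to be high only at 8 h. Of the 17 tested genes, 9 were higher and 6 lower with BMH-21 at 8 h, and 9 and 1 with CX-5461. The 10 fibroblast markers in the table summed to 30.5 to 32.2 in control, to 48.9 to 52.6 and 38.7 to 43.6 at 4 h and to 55.7 to 61.3 and 44.8 to 47.5 at 8 h. Those of primitive endoderm summed to 981 to 1014 in control, to 1038 to 1110 and 1039 to 1077 at 4 h and to 1107 to 1231 and 1051 to 1062 at 8 h. Their part in the values of the 16 genes was not tested, and in bulk RNA fewer cells of a type and less RNA per cell cannot be told apart.

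The genes lie on 10 chromosomes of GRCm38 (GENCODE M21 annotation). In the annotation Hdac9 spans chr12:34047580-34917095 on the minus strand and Grid1 chr14:34820108-35583379 on the plus strand, 869516 and 763272 bases. These were the 2 of 16 genes over 500 kb long, against 0.76% of tested genes. The other 14 were short to medium, and the median span of the 16 was 17248 bases, against 23160 over tested genes. Rec8 lies at chr14:55618037-55625395 on the plus strand, Pla2g7 at chr17:43568098-43612201 on the plus strand, Calr4 at chr4:109234485-109254571 on the plus strand and Scml4 at chr10:42860370-42960780 on the plus strand. Ptrf (chr11:100956733-100970887), Krt19 (chr11:100140810-100148665) and Abcc3 (chr11:94343295-94392997) are all on the minus strand of chromosome 11. Arhgef5 (chr6:43265582-43289320) and Usp17lc (chr7:103415072-103419880) are on plus strands, and Prss23 (chr7:89507783-89527187) is on a minus strand. Values are sums over all exons of each gene, so they say nothing of single isoforms.

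AF067061 (chr13:120263114-120264517) and Gm20767 (chr13:120140246-120155335) start 122.9 kb apart, and the tested genes around them were all high late. Tcstv3, 53.8 kb beyond AF067061, had 8 h changes of 2.42 and 1.87 with BMH-21 and CX-5461. Tcstv1, 368.3 kb on the other side, had 2.62 and 1.91, and B020031M17Rik, 312.3 kb away, 1.63 and 1.17. Their 4 h changes ran from 0.26 to 0.63. Because AF067061 shares sequence with each of the others, the same reads may contribute to more than 1 of these genes.

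Near Krtdap (chr7:30787896-30791097), 2 genes of epidermal proteins were high earlier. Sbsn, which encodes suprabasin, starts 36.4 kb before it and had changes of 5.77 and 4.57 at 4 h and 7.32 and 4.74 at 8 h. Dmkn, which encodes dermokine, starts 24.1 kb before it and had 1.99 and 1.41 at 4 h and 3.28 and 2.23 at 8 h. Krtdap had 0.31 and 0.05 at 4 h. The early rise was not limited to epidermal genes. Gapdhs, 44.2 kb away, had 2.00 and 1.60 at 4 h, and Cd22, 92.4 kb away, 1.95 and 1.66. The other tested neighbours of Krtdap had means below control at 8 h with both inhibitors. Around Krt19 the neighbours differed. Krt15, 12.7 kb away, had 5.87 and 5.49 at 4 h and 7.46 and 5.34 at 8 h, and Krt36, 43.0 kb away, 6.00 and 4.83 at 4 h. Krt13, 27.1 kb away, had 0.85 and 1.197 at 4 h and 2.17 and 2.09 at 8 h. On the other side the keratins went in both directions. Krt9, 44.6 kb away, had -0.48 and -0.20 at 4 h and -0.85 and -0.22 at 8 h. Its CX-5461 value at 8 h did not pass the test. Krt14, 58.9 kb away, had 1.44 and 1.04 at 4 h and 1.94 and 1.07 at 8 h. Krt16, 100.2 kb away, had 2.18 and 2.07 at 4 h and was also above control at 8 h with both inhibitors. Krt17, 112.4 kb away, had -1.25 and 0.23 at 8 h, and Krt42, 121.2 kb away, -1.63 and -0.60. Zadh2 (chr18:84088063-84097528) and Tshz1, a zinc finger gene on the opposite strand, start 357 bases apart. Tshz1 had changes of 1.65 and 1.87 at 4 h and 2.81 and 1.98 at 8 h, while Zadh2 had 0.18 and 0.39 at 4 h and 2.02 and 1.5 at 8 h.

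**Figure D4:**
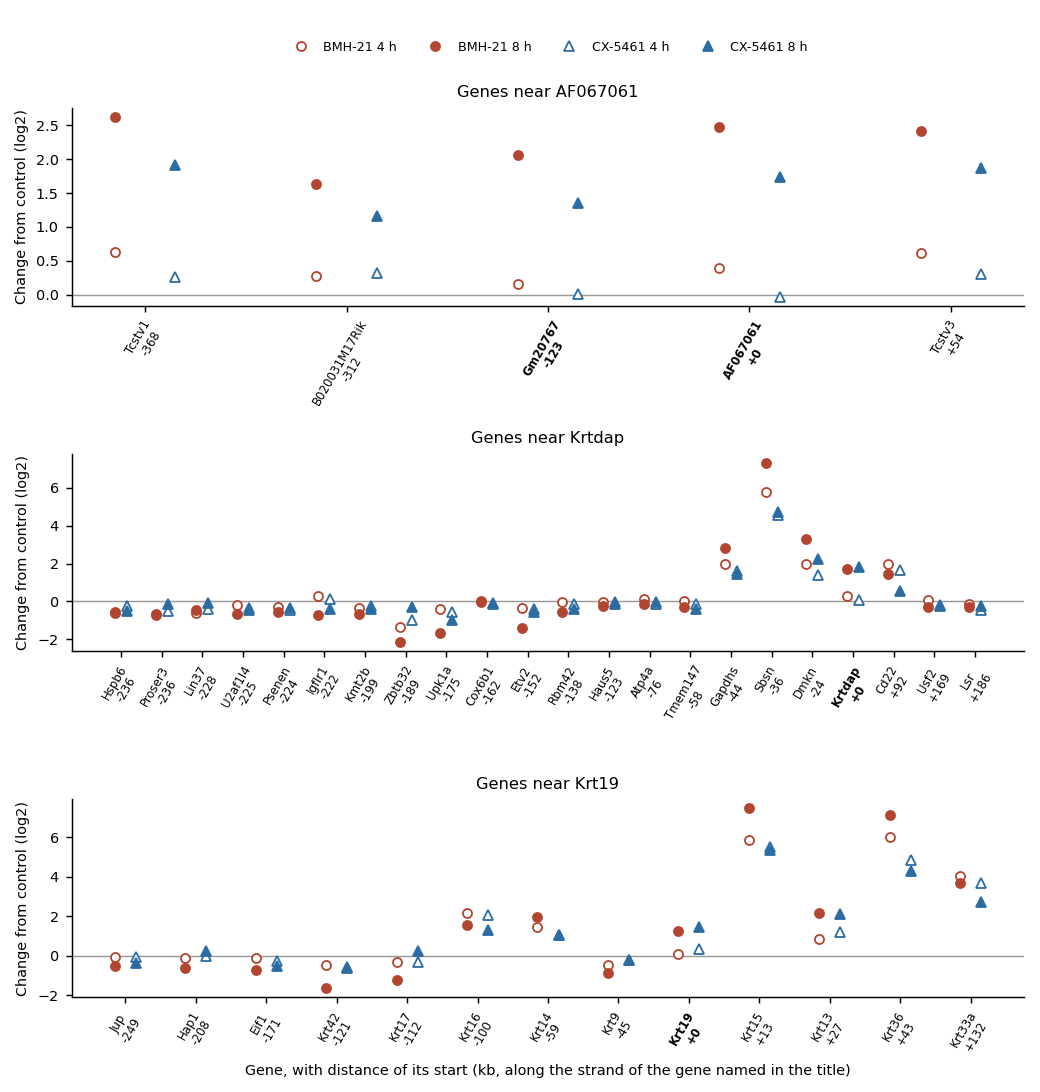
Changes from control (y axis, centred log2) at 4 h (open) and 8 h (filled) for the genes around AF067061, Krtdap and Krt19, ordered along the strand of the gene in the panel title with the distance of each start in kb. Circles are BMH-21 and triangles CX-5461 group means of 3 libraries. Sbsn, Krt15 and Krt36 stand far above 0 at 4 h, while Krtdap and Krt19 (bold) are at most 0.33.

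Over all 16 loci the neighbours as a whole resembled the other genes of the table. Within 250 kb of a start of the 16, 105 other tested genes were found. At 8 h 32 of them (30.5%) were called higher with both inhibitors and 39 (37.1%) lower with both, against 24.9% and 39.8% of all tested genes. Their median changes were -0.17 with BMH-21 and -0.08 with CX-5461.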

How the data were processed

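The data were poly(A) RNA-seq libraries of a directional kit from 7 groups of 3 samples, mapped to groups by their titles. The authors deposited 1 table of log2 values for 20900 genes. The submitters' processing notes name Trim Galore 0.5.0, TopHat2 2.1.1, R 4.0.5, DESeq2 1.30.1, edgeR 3.32.1, limma 3.46.0 and mm10, without roles. Every deposited log2 value equals whole reads plus 0.5 over a library size, within 1.8e-08 of a whole read. That size holds a factor per library of 0.832 to 1.38 whose origin is not given in the sources used here. An offset understates the changes of genes with few reads. Each library was centred on its median over the 14666 genes above 0 in at least 3 libraries, which removed shifts against control, at 2, 4 and 8 h, of -0.08, -0.15 and -0.21 (BMH-21) and -0.15, -0.16 and 0.22 (CX-5461). All 16 members passed this filter.

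The test was limma 3.58.1 in R 4.3.3 (1 mean per group, all 21 libraries, eBayes with trend, two-sided, Benjamini-Hochberg over 14666 genes, threshold 0.05), tested first on simulated data. Read counts of replicates differed beyond counting error (chi-square over degrees of freedom, 2.58 to 26.0). BMH-21 replicate 2 at 8 h stood furthest from its group. The members and lists were chosen with earlier results of these data known. Per-library values are given for the 12 members with the largest mean 8 h change that hold at least 10 reads in each 8 h library and for those in a list. At each limit of the rule the 2 genes on either side are named, and for the inhibitors up to 5 members in each direction that passed without overlap. Neighbours, listed genes with values and members with early separation were picked after their values were seen. Of the symbols, 20652 matched GENCODE M21, whose GRCm38 is the build of mm10. Shared sequence was searched in 50-base stretches of its transcripts. Promoters came from RefSeq. Figures were drawn with matplotlib 3.10.9. Alternatives were other scalings, filters, offsets, variance models, limits, the replicate block and leaving out each replicate.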

Additional observations from a re-analysis of the deposited data

Results flagged for a closer look

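The response to the inhibitors, measured against the same control, differed between BMH-21 and CX-5461 in 8 of the tests on the late-rising genes. The limma test was of the difference itself. Called were 5 of the 16 genes at 8 h, against 71.7% of all tested genes, and 3 at 4 h, against 45.8%. At 2 h 0 were called, against 15.4%. A call is thus no mark of these genes. At 8 h the difference, BMH-21 minus CX-5461 on the centred log2 scale, was 0.95 for Hdac9, 0.73 for AF067061, 0.71 for Gm20767, 0.52 for Zadh2 and -0.62 for Pla2g7. At 4 h it was 0.42 for AF067061, -0.59 for Hdac9 and -0.38 for Rec8. Each of the 8 had 3 libraries of one inhibitor beyond all 3 of the other. At 8 h this held for 31.6% of all tested genes with BMH-21 higher and 40.4% with it lower. The calls of Zadh2 at 8 h and of AF067061 at both times were lost under some of the other settings given above. Hdac9 alone was past the threshold at both times with opposite signs, and AF067061 at both times with the same sign. The genes were chosen to lie within 0.6 of control at 4 h with both inhibitors, which limits the 4 h differences. At 8 h the choice set a lower limit of 1.2 for each inhibitor and no upper one.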

How the results depend on the processing

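The number of genes kept by the rule, 16, moved with several settings. It was 38 on the deposited scale, 8 with a minimum mean of 1, 8 and 35 with early limits of 0.4 and 0.8, and 32 and 6 with late limits of 1.0 and 1.4. It was 12 to 20 under the other scalings, offset, floor and minimum, and 14 to 21 without each library in turn.

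Of the members, 5 were called at 8 h. This became 3 where a log2 value above 0 was required in all 21 libraries, which leaves fewer members to test, 10 on the deposited scale and 4 to 6 without each library. At 4 h the 3 called members became 5 with median-ratio factors and 2 to 3 without each library, and the 6719 genes called over the table became 2617 on the deposited scale. At 2 h the 2261 genes became 585 on that scale, and the 0 members became 0 to 1 without each library. The deposited scale shifts all differences by 1 amount per time, so its calls follow from its construction. There BMH-21 was lower in 84.9% of the genes called at 8 h, where centring gave 56.6% and median-ratio factors 51.4%. The 4 h share was 40.3% as centred, 57.8% by median ratios and 51.7% by quantile normalization. The 2 h share was 49.2%, 63.6% and 58.2% in that order and 38.1% as deposited.

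Among differences between the inhibitors at 8 h that did not pass the test, the sign turned on the deposited scale for Grid1 (-0.22), Prss23 (-0.38), Rec8 (-0.32), Scml4 (-0.0228) and Usp17lc (-0.20). It turned with median-ratio factors for Abcc3 (0.0245), Arhgef5 (0.032) and Ptrf (0.0435), and with quantile normalization for Prss23 (-0.0829) and Ptrf (0.0174). Without 1 library the ranges were -0.0469 to 0.0013 for Abcc3, -0.0914 to 0.10 for Arhgef5, -0.0393 to 0.0944 for Prss23 and -0.0254 to 0.031 for Ptrf.

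List counts at 8 h also moved, the cause of which was not tested. On the deposited scale the lower calls with BMH-21 became 3 for p53 targets, and the higher calls with BMH-21 became 2 for germline and 1 for fibroblast genes. The lower calls with CX-5461 became 0 for p53 targets, NF-kB targets, trophoblast, mesoderm and fibroblast genes, 4 for interferon-stimulated, 1 for primitive endoderm, 3 for neuronal and 2 for epithelial junction genes. With median-ratio factors the lower calls with CX-5461 became 0 for p53 targets, 1 for NF-kB targets and 4 for neuronal genes, and the higher calls became 2 for germline genes.

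Replicates of the 2 inhibitors with the same number did not deviate together at 8 h (correlations of 0.04, 0.02 and 0.05). The controls had no part in this check, and it cannot tell whether same-numbered samples shared a culture or batch. With the replicate number as a block 5, 3 and 0 members were called at 8, 4 and 2 h, and 10439, 6535 and 2120 genes. Some genes had under 50 reads in control, such as Scml4, Prss23 and Usp17lc. Their 95% intervals at 8 h were wide (-0.03 to 0.84, -0.32 to 0.42 and -0.23 to 0.68). A difference between the inhibitors that did not pass the test is not shown to be absent in them.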
